A study of Mus musculus with 34 samples.

Results

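Chromatin at 9 genes that encode scavenger receptors and other receptors for phosphatidylserine was followed in mouse hair follicle stem cells (HFSCs), in 34 ATAC-seq libraries. The genes were Lrp1, Cd36, Scarb1, Stab1, Stab2, Timd4, Havcr1, Adgrb1 and Jmjd6, which are 9 of 21770 protein-coding genes in the annotation. They were chosen for their known role and not by a value measured here, but with earlier results of these data known. A called peak was given to a gene when its summit lay in the gene body, up to 50 kb upstream of it or up to 5 kb downstream. Peaks that overlapped by 1 bp or more, from any library, formed a site. The 9 windows held 153 distinct sites and 1407 peaks, of 252803 merged sites and 1930325 peaks on the main chromosomes.

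A dying cell turns phosphatidylserine to the outside of its membrane, and a neighbour that carries a receptor for this lipid can recognise and engulf it. Timd4, Havcr1, Stab1, Stab2 and Adgrb1 encode receptors that bind phosphatidylserine directly. Cd36, Scarb1 and Lrp1 encode scavenger receptors with many ligands, among them oxidised lipids and lipoproteins, and Lrp1 also takes up cells marked by calreticulin. Jmjd6 was first described as a phosphatidylserine receptor and is now known as a nuclear oxygenase. HFSCs are epithelial cells of the skin, and they meet dying neighbours when the follicle regresses in catagen.

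ATAC-seq marks open chromatin with a transposase, and each library was a pool of sorted cells. From skin, wild-type HFSCs were taken in late catagen (CatVII, n = 6) and in full anagen (AnaVI, n = 2). Further CatVII cells came from Rxra cKO mice, which carried Sox9-creER and were Rxra fl/fl and R26-YFP fl/+ (n = 3), and from Rxra WT mice (n = 4). RXRα is a nuclear receptor that pairs with retinoic acid receptors. Cultured HFSCs came from an Rxra cKO line, which was Rxra fl/fl with Sox9-creER and the reporter R26-YFP fl/fl, and an Rxra WT line (Rxra+/+ with the same Cre and reporter). Both had been treated with 4-hydroxytamoxifen and were grown on 3T3/J2 feeder fibroblasts. The Rxra cKO line received apoptotic corpses (n = 3), a mixture of lysophosphatidylcholine, retinoic acid and arachidonic acid (AA+LPC+RA, n = 2) or medium (n = 2). The Rxra WT line received corpses exposed to BEL (bromoenol lactone, which inhibits a phospholipase A2; n = 4), corpses (n = 4), AA+LPC+RA (n = 2) or medium (n = 2). The corpses were HFSCs killed with cisplatin. Mouse ages are not in the labels. Tamoxifen was given to Rxra cKO and Rxra WT mice. The study describes its Rxra WT mice in more than one way, as Rxra+/+ with the Cre and the reporter for the cells sorted for ATAC-seq and as Rxra fl/fl without the Cre elsewhere, and the labels do not say which applies. Sox9, whose promoter drives the Cre, is expressed in the outer root sheath as well as in the stem cells. In culture the genotype cannot be told apart from the cell line, and a comparison of CatVII cells with cultures joins stage, culture, feeder cells, corpses and library batch, which cannot be told apart either.

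The libraries held 4144 to 129876 called peaks each. The 4 medium cultures were lowest with 4144 to 5740, and CatVII wild type covered 8311 to 52110. With AA+LPC+RA, Rxra WT 1 held 89590 and Rxra WT 3 held 12989. Counts of called peaks therefore followed the length of the list, and each comparison below used lists of equal length, cut by significance to the shortest library of that comparison. Promoters of 10 markers of HFSCs carried a peak for 9 to 10 genes in each CatVII Rxra cKO and Rxra WT library. The number was 6 to 9 in every corpse culture and 0 to 2 in medium. It was 1 to 10 in CatVII wild type and 2 to 10 in AnaVI wild type. With AA+LPC+RA it was 9 in each Rxra cKO culture and 5 to 9 in Rxra WT. Promoters of 6 leukocyte markers carried a peak for 0 to 4 genes in any library, those of 5 endothelial markers for 0 to 3, those of 6 fibroblast markers for 0 to 4 and those of 5 melanocyte markers for 0 to 3. The promoter of the endothelial marker Cdh5 carried a peak in 3 of 3 Rxra cKO cultures with corpses and 2 of 2 with AA+LPC+RA, and in no other library. Of all 5 endothelial markers, 2 carried a peak in each Rxra cKO culture with corpses. The number was 1 in each Rxra WT culture with corpses and 1 to 2 with BEL-treated corpses. The part of these markers in the results was not tested. The window of Rxra itself held 13, 8 and 14 listed peaks in CatVII Rxra cKO, against 14, 13, 18 and 16 in CatVII Rxra WT, and 13, 14 and 12 in Rxra cKO HFSCs with corpses, against 18, 21, 20 and 20 in Rxra WT HFSCs with corpses. Peak lists do not show whether an exon was deleted. Names stored inside the lists carry tags beyond the labels. CatVII Rxra WT replicates 2, 3 and 4 carry P37, as the CatVII wild-type libraries do, and Rxra WT replicate 1 and all CatVII Rxra cKO libraries carry P42. CatVII Rxra cKO replicates 2 and 3 carry the same mouse number there. Tags Phago and NonPhago also occur, and among the CatVII Rxra libraries only Rxra cKO 3 carries Phago. Both Rxra cKO libraries with AA+LPC+RA carry NonPhago and both Rxra WT ones carry Phago, so genotype and tag cannot be told apart there. In Rxra WT with corpses, BEL-treated or not, replicates 1 and 2 carry NonPhago and 3 and 4 Phago. In Rxra cKO with corpses, 1 and 2 carry NonPhago and 3 Phago. Nothing says which cultures were separate, so p-values measure only how these samples vary, and that variation may be technical. A site open in few cells and one that is less open in every cell cannot be told apart in pooled cells.

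All 9 genes had at least 4 sites, but the number of libraries with a peak ranged widely between genes. Lrp1 had 32 sites and a peak in 33 of 34 libraries, and Jmjd6 had 11 sites and a peak in 30. Scarb1 had 22 sites (28 libraries), Adgrb1 25 (26 libraries), Stab1 19 (26 libraries) and Stab2 20 (25 libraries). Cd36, with the second-longest window at 162.6 kb, had 11 sites and 39 peaks in 19 libraries. Havcr1 had 9 sites and 18 peaks in 7 libraries, and Timd4 4 sites and 11 peaks in 4 libraries. Of the 153 sites, 33 (21.6%) had a peak in 1 library, against 31.8% of all merged sites, and 27 (17.6%) had one in more than 17 libraries, against 12.3% of all. In 27 sites all peaks were from in vivo libraries, in 65 all were from cultures, and 61 had peaks in both.

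**Figure D1:**
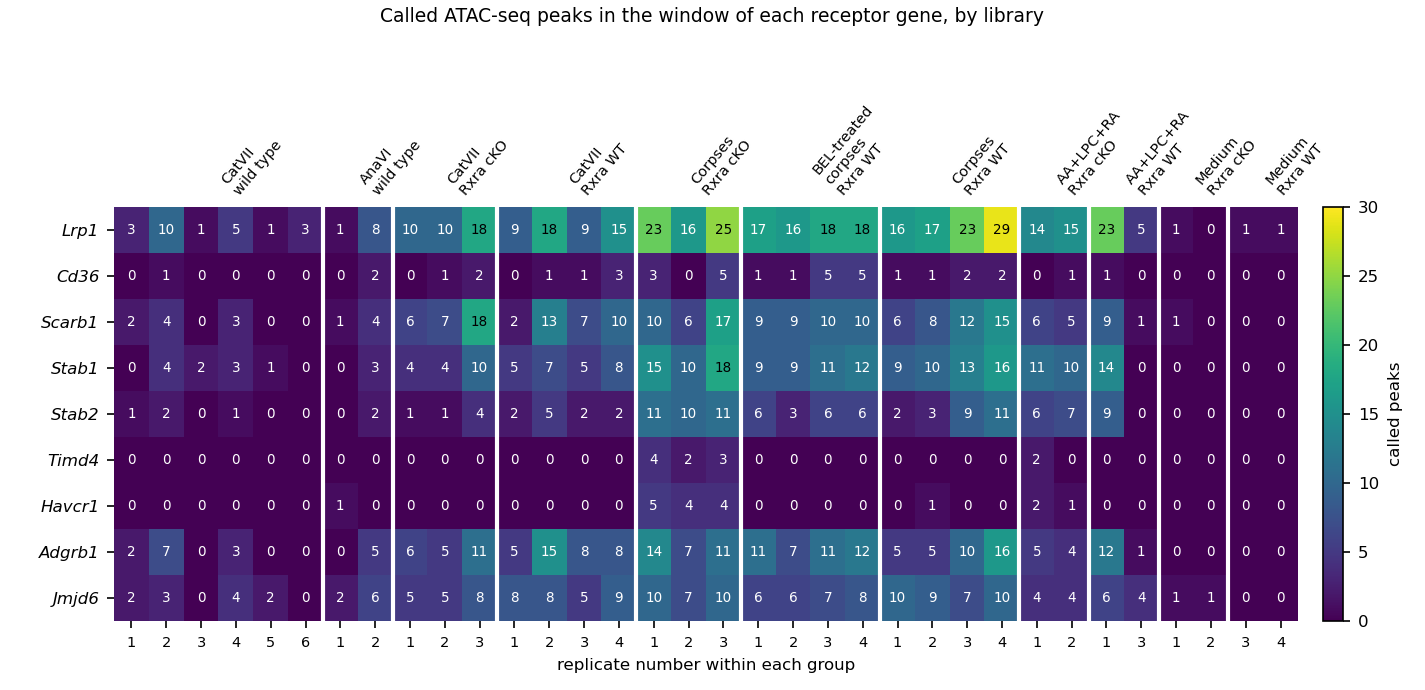
Number of called peaks in the window of each receptor gene (down) in each library (across, in 11 groups with the replicate number below). The 4 medium libraries hold 0 or 1 peak of each gene, and the peaks of Timd4 lie in 4 libraries only, all of the Rxra cKO line with corpses or AA+LPC+RA.

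The gene starts were also open to different degrees. A peak within 1 kb of the 5′ end of the gene was called in 31 libraries at Lrp1, 28 at Jmjd6, 21 at Scarb1, 5 at Adgrb1 and 1 at Stab2. None was called at the 5′ end of Stab1, Cd36, Timd4 or Havcr1. With every annotated transcript start counted, the numbers were 24 for Scarb1, 18 for Adgrb1, 16 for Stab1 and 6 for Cd36, and 0 for Timd4 and Havcr1. A list holds only peaks past the authors' threshold, so no peak means that none passed it.

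Lrp1 (chr10:127374012-127457017, minus strand) encodes a large endocytic receptor of the cell surface. Its promoter site (chr10:127456848-127458216) had a peak in every library except CatVII wild type 3, AnaVI 1 and Medium Rxra cKO 2. At rank 299 of Medium Rxra cKO 1 it was among the most significant peaks of that library, with a fold enrichment of 10.1. Rank 1 is the most significant peak of a library by the −log10 p. Across the 3 Rxra cKO cultures with corpses its fold enrichment was 12.1 to 15.6, and across the 4 Rxra WT cultures with corpses 11.1 to 15.7. The promoter of Scarb1 (chr5:125353547-125418176, minus strand), which encodes the HDL receptor SR-BI, was more variable. Its site (chr5:125417174-125418436) was called in every CatVII Rxra cKO library and in 3 of 4 from Rxra WT, but in 1 of 6 CatVII and 0 of 2 AnaVI wild-type libraries. The sequences below are the 101 bases centred on the median summit of the 2 promoter sites, shown because these were the most widely open gene starts outside the shared Jmjd6 promoter. They are given 5′ to 3′ on the plus strand of GRCm39, with the SP/KLF letters GGGCGG or CCGCCC in capitals.
Lrp1 promoter, chr10:127457568-127457668: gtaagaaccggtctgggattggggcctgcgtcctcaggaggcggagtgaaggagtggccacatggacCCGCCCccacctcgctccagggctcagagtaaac
Scarb1 promoter, chr5:125417817-125417917: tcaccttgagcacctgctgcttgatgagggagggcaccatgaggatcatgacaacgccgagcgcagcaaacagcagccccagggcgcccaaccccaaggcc

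The Lrp1 sequence holds 1 SP/KLF match. The 101 Scarb1 bases hold none, and the 201 bases around the same summit hold 1. The letters GGGCGG on either strand were found within 100 bp of the summit at 13.1% of the 153 sites and at 8.22% of all merged sites, and at 26.2% of the 61 sites with peaks both in vivo and in culture, against 16.3% of all sites of that kind. Such a match is a description of the letters.

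Jmjd6 (chr11:116728252-116734630, minus strand) shares its promoter site (chr11:116733359-116735003) with the start of Mettl23. The site was called in 4 of 6 CatVII and 2 of 2 AnaVI wild-type libraries, and in all libraries of the other groups except the 4 medium cultures. The most widely shared site of its window (chr11:116743026-116745017, 30 libraries) lies over the starts of Mfsd11 and Srsf2, at -9.6 kb from the start of Jmjd6. Minus distances lie upstream. The windows hold other genes, so a site need not belong to the receptor gene. This applied also to the most shared site of Stab1 (chr14:30855232-30856804, 26 libraries), which covers the start of Nt5dc2. Of the 153 sites it was the only one called in all 6 CatVII wild-type libraries. It spans the edge of the window, so some of its summits are not counted as Stab1 peaks.

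Stab1 (chr14:30860970-30890598) and Stab2 (chr10:86675054-86843889), both on the minus strand, encode stabilin 1 and stabilin 2, known from sinusoidal endothelium and, for stabilin 1, from macrophages. No peak was called at the 5′ end of Stab1. A site at +28.8 kb inside the gene (chr14:30861320-30862200) lies at -22 bp from the start of an annotated coding transcript. It had a peak in all 11 cultures with corpses, whereas in CatVII cells none of the Rxra cKO libraries and 1 Rxra WT library had it. At Stab2 the start (chr10:86843837-86844164) was called in 1 library, CatVII Rxra WT 2. The most shared site of Stab2 lies at -8.2 kb (chr10:86851759-86852579) and had a peak in 25 libraries, including 3 of 6 CatVII and 1 of 2 AnaVI wild-type libraries.

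Adgrb1 (chr15:74388044-74461314, plus strand) encodes BAI1, an adhesion G protein-coupled receptor. Its 5′ end (chr15:74387863-74388606) was called in 5 libraries: 1 each of CatVII wild type, CatVII Rxra cKO and CatVII Rxra WT, and 2 of the BEL-treated corpse cultures. The site over an internal coding start at +47.3 kb (chr15:74435290-74435670) was called in 17. Its most shared site lies at -28.6 kb (chr15:74358916-74359915), with peaks in 25 libraries.

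Cd36 (chr5:17986432-18094067, minus strand) encodes a fatty acid and oxidised lipid receptor. Its best shared site, at +78.5 kb in an intron (chr5:18015253-18015802), was called in 9 libraries. These were 1 of 6 CatVII wild type, 1 of 2 AnaVI wild type, 2 of 3 CatVII Rxra cKO, 3 of 4 CatVII Rxra WT and 2 of 4 BEL-treated corpse cultures. The sites over annotated starts of Cd36 were called in 2 libraries at +39.3 kb (chr5:18054749-18054860) and in 4 at +12.2 kb (chr5:18081774-18082105). The best rank at +12.2 kb was 41413, in CatVII Rxra WT 4, so it was far from the most significant peaks of any library.

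**Figure D2:**
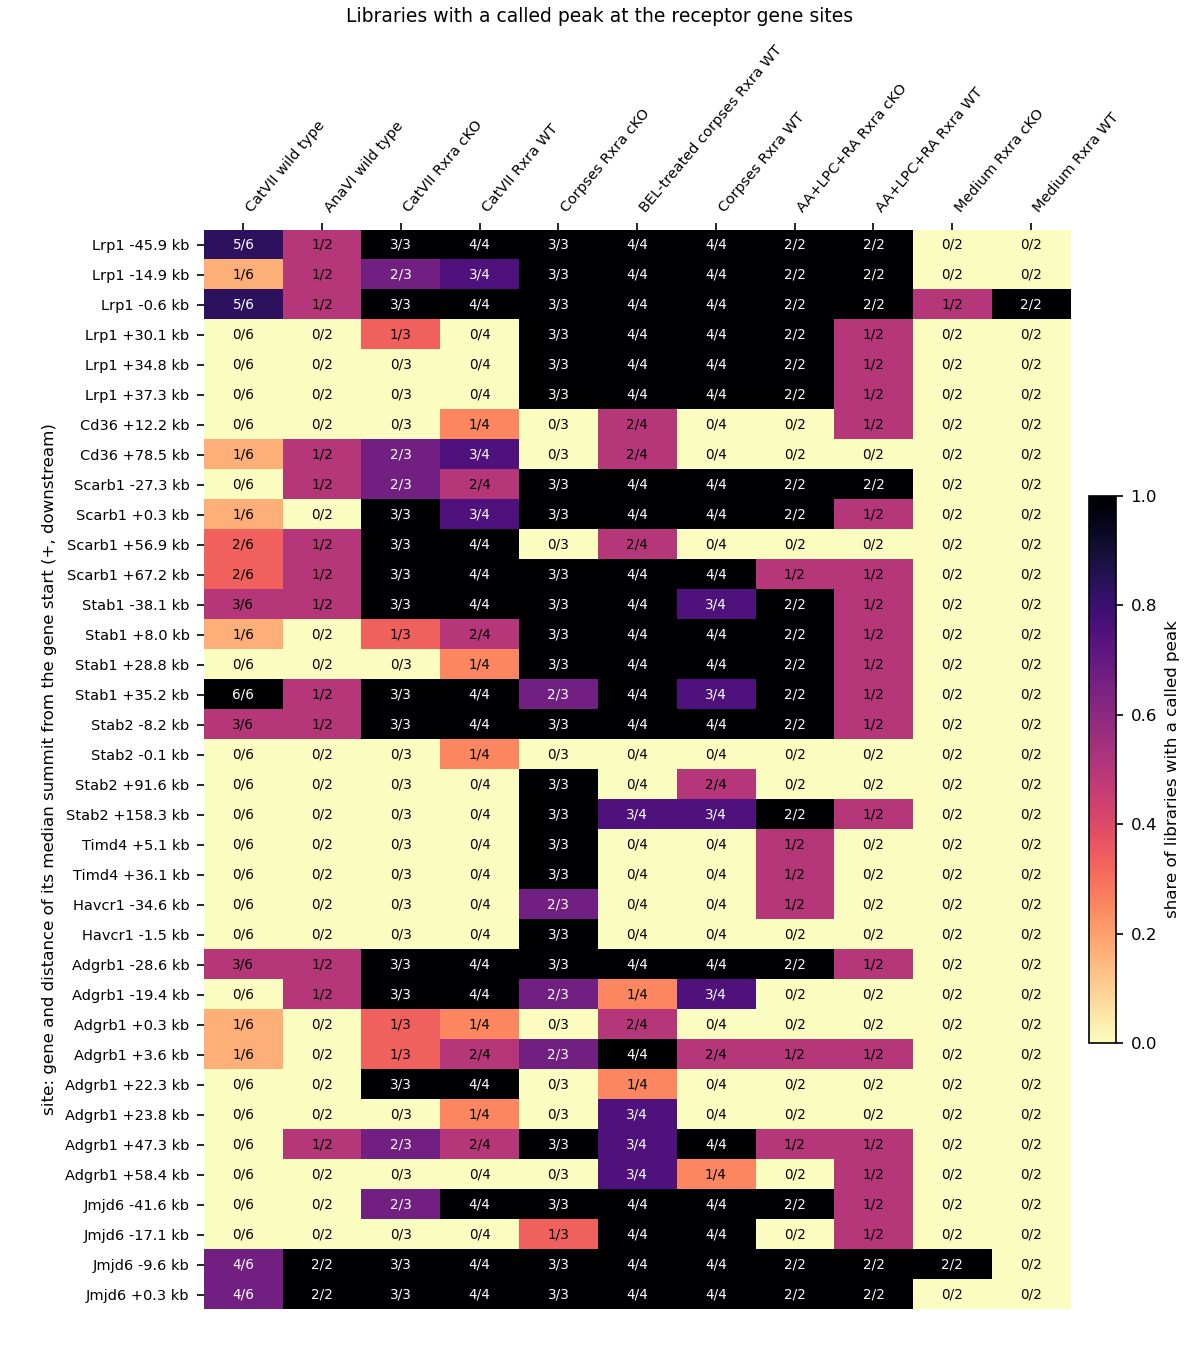
Share of the libraries of each group (across) with a called peak at selected receptor gene sites (down, named by gene and distance in kb of the median summit from the gene start, plus downstream), with the number of libraries in each cell. The Lrp1 promoter at -0.6 kb is open in most groups, the Lrp1 introns at +30.1 to +37.3 kb are open in cultures, and the Timd4 sites are open only in Rxra cKO cultures with corpses or AA+LPC+RA.

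The effect of Rxra loss in CatVII HFSCs was compared first. Lists of 41317 peaks per library were compared for 3 Rxra cKO and 4 Rxra WT libraries. None of 31 testable receptor sites had a peak in every Rxra cKO library and in no Rxra WT library, against 0.665% of all 40906 testable sites. None had the opposite pattern, against 1.85%. A site was testable when at least as many libraries held a peak as the smaller group has. By rank, 1 of 31 sites was more significant in every Rxra cKO library than in any Rxra WT library (background 3.82%) and 2 were less significant in every one (background 6.93%). The first was the -28.6 kb site of Adgrb1, at ranks 2801, 1135 and 1853 in Rxra cKO, against 3370, 11080, 11629 and 5497 in Rxra WT. The others were the sites of the Lrp1 window over the start of Stat6 (chr10:127477594-127480144) and of the Jmjd6 window over the start of Mfsd11 (chr11:116759932-116760889). At the Lrp1 site over Stat6 the ranks were 13808, 18036 and 15805 in Rxra cKO, against 9341, 11387, 13168 and 10499 in Rxra WT.

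The peaks of each gene, as a share of the list, overlapped between these groups for all 9 genes. Scarb1 had 6, 6 and 4 listed peaks in Rxra cKO, against 2, 4, 5 and 3 in Rxra WT, which is 12.9 ± 2.79 and 8.47 ± 3.12 per 100000 listed peaks (SD, n = 3 and 4; exact permutation p = 0.143, adjusted p = 0.76). The other genes had p of 0.771 or more. The smallest p this design allows is 0.0286, and 3.63% of 18582 genes had p under 0.05. With all called peaks, in lists of unequal length, 2 Scarb1 sites were called in CatVII Rxra WT libraries only. They lie at +48.1 kb (chr5:125369970-125370358) and +15.0 kb (chr5:125402797-125403510), both over annotated internal starts. Their best ranks were 36275 and 52949, while the whole lists of Rxra cKO 1 and Rxra WT 1 held 41317 and 43758 peaks. At +15.0 kb a peak of such rank could not appear in those 2 libraries. The share of all sites divided in this way was not counted. Both had a peak in Rxra WT replicates 2, 3 and 4 and in none of Rxra WT 1 or the Rxra cKO libraries, which is also the division by the stored tags P37 and P42.

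The hair cycle comparison rested on short lists of 8223 peaks, set by CatVII wild type 3, and on 2 AnaVI libraries. None of 6 testable receptor sites was called in every CatVII and no AnaVI library (background 4.92%), and none in both AnaVI and no CatVII library (background 9.55%). By rank, 0 sites were more significant in every CatVII library (background 8.73%) and 0 in every AnaVI library (background 15.0%). Scarb1 had no listed peak in the 6 CatVII libraries and 1 in each AnaVI library, a difference of -12.2 per 100000 (exact permutation p = 0.0357, the smallest possible; adjusted p = 0.399), where 8.95% of 15074 genes had p under 0.05. Without CatVII wild type 3, which set the list length, the difference was -3.01. With all called peaks the Scarb1 windows of the 2 groups overlapped, with 2, 4, 0, 3, 0 and 0 peaks in CatVII and 1 and 4 in AnaVI. The remaining 8 genes had p of 0.25 or more. Lrp1 had 1 listed peak in each of the 6 CatVII libraries, against 0 and 3 in AnaVI.

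Corpses were compared with medium in the Rxra WT line on lists of 4812 peaks, because the medium libraries called few. Only 2 receptor sites were testable. None was called in all 4 corpse cultures and no medium culture (background 20.7%), and 1, the Lrp1 promoter, was called in both medium cultures and no corpse culture (background 11.4%). It ranked 3634 and 1190 in medium, and with all called peaks it was present in all 4 corpse cultures too, at ranks 10816, 9856, 5146 and 12433. The rank comparison gave the same numbers of sites, 0 for corpses (background 24.4%) and 1 for medium (background 13.6%). With all called peaks, 35 of 72 testable receptor sites (48.6%) were specific to corpses, against 51% of all sites, and 0 to medium, against 0.571%, with 72225 to 114726 called peaks in the corpse cultures and 4841 to 5740 in medium. No gene had a p under 0.05, and the smallest p possible was 0.0667. A difference at most receptor sites was not detectable with lists of this length.

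In cultures with corpses, and in lists of 72047 peaks per library, peaks in the windows of Stab2, Timd4 and Havcr1 were more numerous in every library of the Rxra cKO line than in any of the Rxra WT line. In the window of Stab2 all 3 Rxra cKO libraries had 8 listed peaks, against 2, 2, 4 and 4 in Rxra WT. The Rxra WT libraries with 2 carry the stored tag NonPhago, and those with 4 carry Phago. With all called peaks the groups overlapped at Stab2, with 11, 10 and 11 in Rxra cKO, against 2, 3, 9 and 11 in Rxra WT. Timd4 (chr11:46701620-46735177, plus strand), which encodes TIM-4, a phosphatidylserine receptor of resident macrophages, had 2, 2 and 1 listed peaks in Rxra cKO and 0 in all 4 Rxra WT libraries. Havcr1 (chr11:46625907-46670405, plus strand), which encodes TIM-1 or KIM-1, known from injured kidney epithelium, had 2, 4 and 2 in Rxra cKO, against 0, 1, 0 and 0 in Rxra WT.

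In lists of equal length the groups did not overlap for any of the 3 genes. The promoter of Cdh5, an endothelial cadherin, carried a peak in the same 3 Rxra cKO libraries and in none of Rxra WT, and its part in the result was not tested. Of the 5 endothelial markers together, 2 carried a promoter peak in each of these Rxra cKO libraries and 1 in each of Rxra WT. Per 100000 listed peaks, Stab2 had 11.1 ± 0 in Rxra cKO and 4.16 ± 1.6 in Rxra WT, Timd4 had 2.31 ± 0.801 in Rxra cKO and 0 in Rxra WT, and Havcr1 had 3.7 ± 1.6 in Rxra cKO and 0.347 ± 0.694 in Rxra WT (SD, n = 3 and 4). Each had an exact permutation p of 0.0286, the smallest this design allows, and an adjusted p of 0.408 over 19507 genes, so none passed the correction. Over all genes 7.0% had p under 0.05. Rxra itself was among them, with an adjusted p of 0.408. The other 6 receptor genes overlapped between the groups. Jmjd6 had 5, 6 and 4 listed peaks in Rxra cKO, against 10, 8, 5 and 9 in Rxra WT (p = 0.114, exact permutation test).

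**Figure D3:**
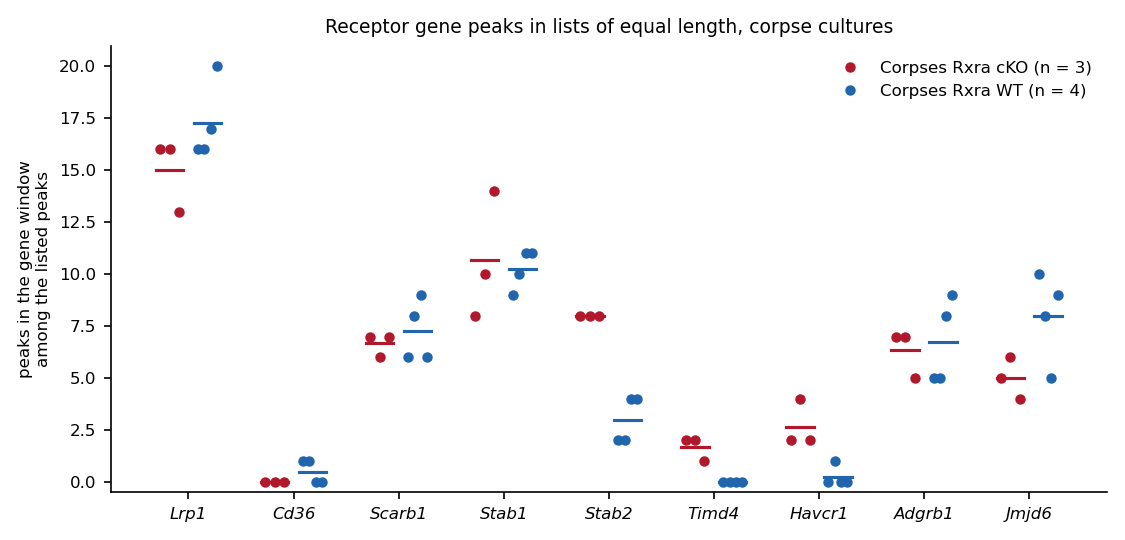
Listed peaks in the window of each receptor gene in HFSCs with corpses, Rxra cKO (red, n = 3) left of Rxra WT (blue, n = 4), in lists of 72047 peaks per library; points are libraries and lines are means. The groups are apart at Stab2, Timd4 and Havcr1.

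Of 53 testable receptor sites, 3 (5.66%) were listed in every Rxra cKO library and in no Rxra WT library with corpses, against 3.63% of all 74620 testable sites. These were Stab2 +91.6 kb in an intron (chr10:86752207-86752368), Havcr1 -1.5 kb (chr11:46624292-46624465) and Timd4 +36.1 kb, downstream of the gene (chr11:46737566-46737785). Stab2 +91.6 kb had ranks 47368, 41351 and 62738 in Rxra cKO. Below the listed length it was also called in Rxra WT 3 and 4, at ranks 87318 and 103260. The Havcr1 site had ranks 55337, 55207 and 53744 in Rxra cKO and was called in no other library of the series. Timd4 +36.1 kb had ranks 26657, 35888 and 43164 in Rxra cKO with corpses and 61522 in Rxra cKO 1 with AA+LPC+RA, and was called nowhere else. In the opposite direction 1 site (1.89%) was listed in every Rxra WT and no Rxra cKO library, against 1.79% of all. It lies at -17.1 kb in the Jmjd6 window (chr11:116751431-116751793) and ranked 21824, 42446, 43421 and 62458 in Rxra WT. Below the listed length it was also called in Rxra cKO 3, at rank 80929, and it was called in all 4 BEL-treated corpse cultures. Without Rxra cKO 2 the number of sites listed in Rxra cKO alone was 7 of 64 (10.9%, against 4.94% of all). With the AA+LPC+RA cultures added to both genotypes, which shortened the lists, it was 0 of 7 testable sites (against 0.824% of all).

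The shares of receptor sites were near those of all sites. The 3 sites listed in every Rxra cKO and no Rxra WT culture with corpses are shown, with the intronic Timd4 site at +5.1 kb because it was called in the same 4 libraries as Timd4 +36.1 kb. Capitals mark the RUNX letters TGTGGT. The AP-1 letters, the SP/KLF letters and the nuclear receptor half-site, searched as AGGTCA and 3 close variants on both strands, were not found in the 101 bases shown. In the 201 bases around the summit, the 2 Timd4 sites hold 1 such half-site each.
Stab2 +91.6 kb, chr10:86752233-86752333: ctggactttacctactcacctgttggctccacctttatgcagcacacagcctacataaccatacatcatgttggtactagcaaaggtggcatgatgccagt
Havcr1 -1.5 kb, chr11:46624368-46624468: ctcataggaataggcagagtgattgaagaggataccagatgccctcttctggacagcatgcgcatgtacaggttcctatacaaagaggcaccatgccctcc
Timd4 +36.1 kb, chr11:46737646-46737746: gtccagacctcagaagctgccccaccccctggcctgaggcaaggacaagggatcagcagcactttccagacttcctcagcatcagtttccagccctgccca
Timd4 +5.1 kb, chr11:46706646-46706746: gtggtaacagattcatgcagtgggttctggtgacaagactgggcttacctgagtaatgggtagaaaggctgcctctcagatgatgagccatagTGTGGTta

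The Timd4 +5.1 kb sequence holds the RUNX letters once, near its end. These letters were found at 29 of the 153 receptor sites, and at 19.2% of all merged sites. Of the 77 overlapping 25-base words of the Timd4 +36.1 kb sequence, 12 occur elsewhere in the genome, and none of those of the other sequences shown does.

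The peaks of Havcr1 and Timd4 were part of a longer stretch of peaks on chromosome 11 in the Rxra cKO line. The 2 windows together held 6 to 9 called peaks in each Rxra cKO culture with corpses and 4 and 1 in the Rxra cKO cultures with AA+LPC+RA. They held 1 peak over the 4 Rxra WT cultures with corpses and 0 in the BEL-treated corpse, AA+LPC+RA Rxra WT, medium and all CatVII libraries. In the 500 kb downstream, which hold the 3′ part of Sgcd, the Rxra cKO cultures with corpses had 2 to 9 peaks each and those with AA+LPC+RA had 2 each. All Rxra WT cultures had 0 there. CatVII Rxra cKO had 1 to 5 and CatVII Rxra WT 1 to 4 in that flank. In the 500 kb upstream, the Rxra cKO cultures with corpses had 17 to 32 peaks and the Rxra WT cultures with corpses 10 to 15. With AA+LPC+RA the upstream stretch held 12 and 10 in Rxra cKO, against 17 and 3 in Rxra WT, so these overlapped. Rxra WT 3 with AA+LPC+RA called only 12989 peaks in the whole genome, against 89590 in Rxra WT 1. The Havcr1 and Timd4 windows thus held peaks in Rxra cKO cultures with corpses or AA+LPC+RA, and none in the Rxra cKO medium cultures, whose lists were short, or in CatVII Rxra cKO libraries. The deletion and the cell line cannot be told apart here, and with AA+LPC+RA the stored tags Phago and NonPhago divide the libraries in the same way.

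**Figure D4:**
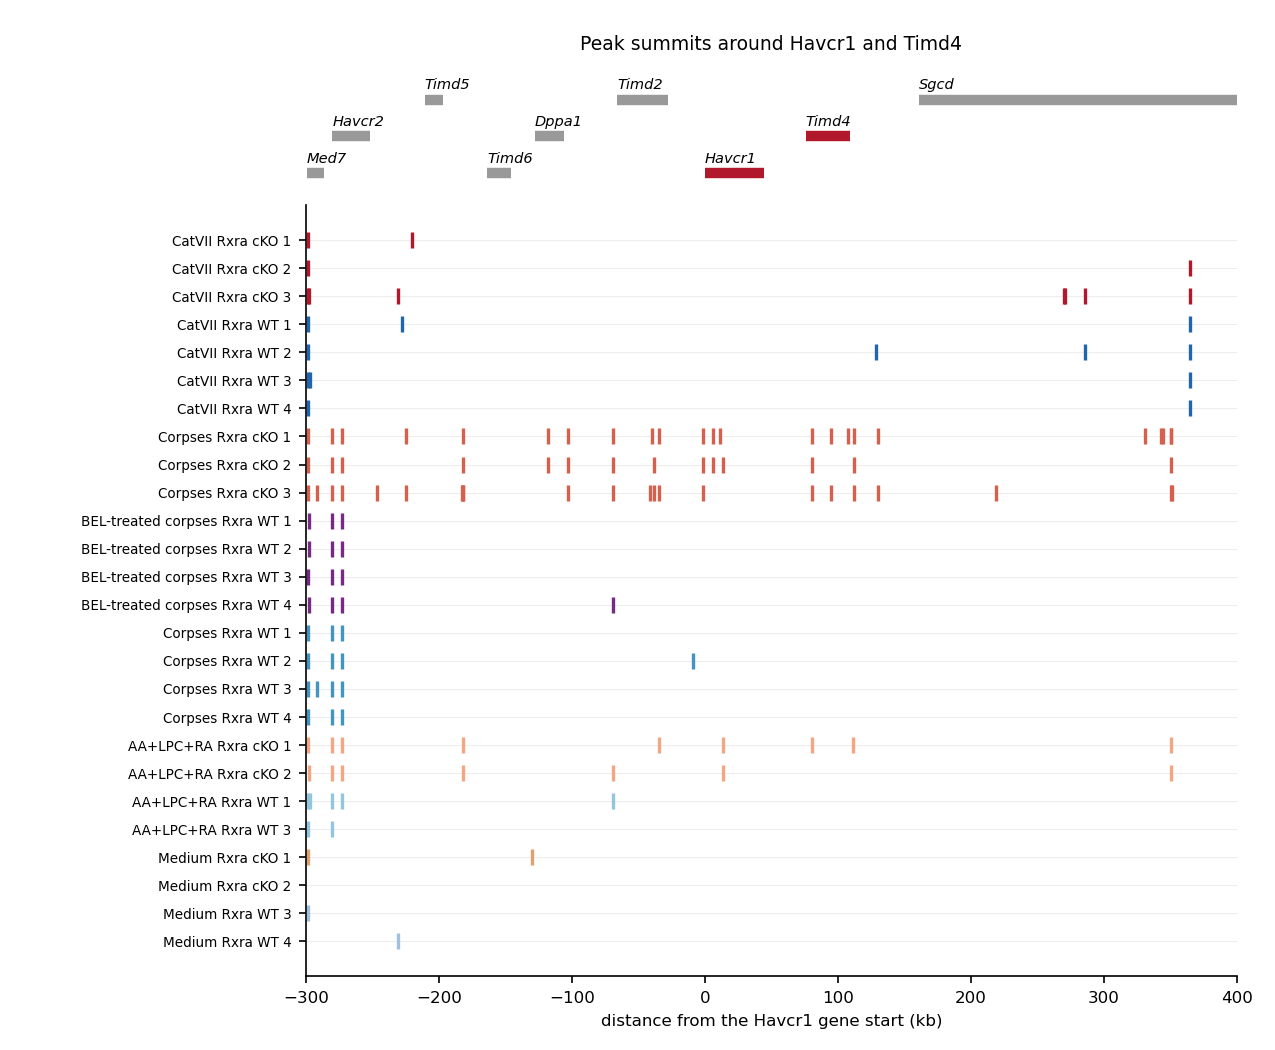
Summits of all called peaks (ticks) in each Rxra cKO and Rxra WT library (down), by distance in kb from the start of Havcr1 (across), with protein-coding genes above and the 2 receptor genes in red. Ticks over and between Havcr1 and Timd4 lie almost all in the Rxra cKO cultures with corpses or AA+LPC+RA.

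By rank, 7 of 53 receptor sites (13.2%) were more significant in every Rxra cKO than in any Rxra WT culture with corpses, against 11.5% of all sites, and 2 (3.77%) were less significant in every one, against 9.44%. The site of this kind with the best ranks was Lrp1 -14.9 kb (chr10:127471579-127472351). Its ranks were 929, 3550 and 985 in Rxra cKO, against 5524, 6477, 4691 and 7535 in Rxra WT. In the CatVII libraries the same site ranked 54503 and 49994 in Rxra cKO 2 and 3, with none in Rxra cKO 1, against 19296, 13978 and 20158 in Rxra WT 2 to 4 and none in Rxra WT 1. In CatVII the genotypes overlapped, since each had 1 library with no peak. The difference between the CatVII and culture comparisons was not tested. Stab2 +158.3 kb, in an intron near the 3′ end (chr10:86685175-86685731), ranked 18780, 29591 and 7133 in Rxra cKO with corpses. In Rxra WT with corpses it ranked 73556, 59149 and 51363 in replicates 2 to 4 and was absent in replicate 1. With AA+LPC+RA it ranked 21380 and 22419 in Rxra cKO, against 65154 in Rxra WT 1 and no peak in Rxra WT 3. The list of that Rxra WT 3 library held 12989 peaks, so a peak at such ranks could not appear in it. It had no peak in vivo.

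Besides the 3 sites listed in Rxra cKO libraries alone, the others more significant in the Rxra cKO line were Stab1 +28.8 kb and Stab1 -29.4 kb (chr14:30919778-30920467). Stab1 +28.8 kb ranked 12819, 16101 and 14101 in Rxra cKO, against 26913, 25459, 31034 and 17745 in Rxra WT. The 2 sites more significant in the Rxra WT line were Jmjd6 -17.1 kb, given above, and Lrp1 +34.8 kb. Sites described by rank, and those compared between CatVII and culture below, were picked after their values were seen.

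**Figure D5:**
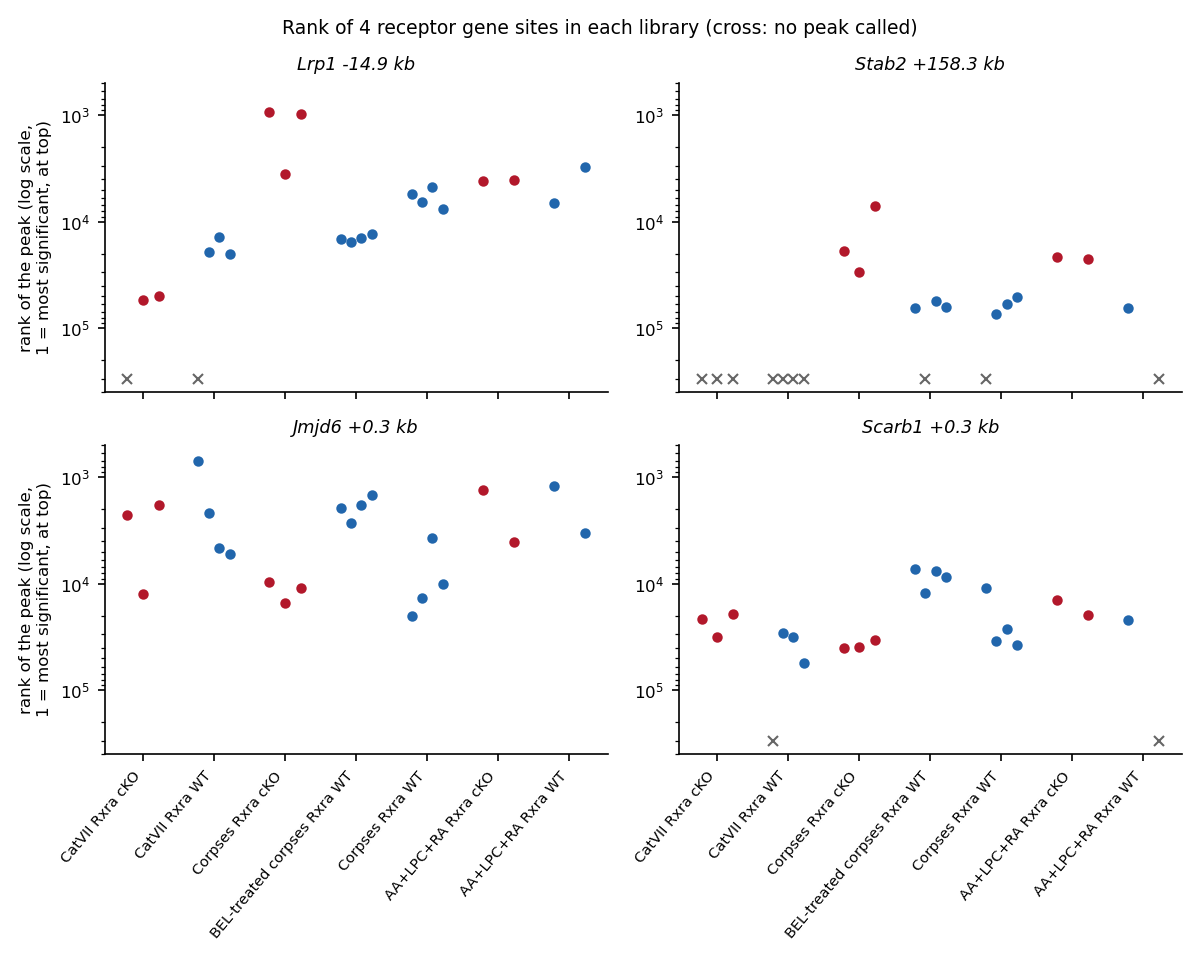
Rank of the best peak of 4 receptor sites (vertical, log scale, 1 at the top being most significant) in each library of 7 groups, Rxra cKO in red and Rxra WT in blue; crosses mark libraries with no peak. At Lrp1 -14.9 kb the Rxra cKO cultures with corpses rank best (929 to 3550), and at Stab2 +158.3 kb the in vivo libraries have no peak.

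BEL treatment of the corpses was compared with untreated corpses in the Rxra WT line on lists of 63739 peaks. Of 46 testable receptor sites, 1 (2.17%) was listed in all 4 BEL-treated and no untreated corpse culture, against 2.26% of all 62168 sites. It was Adgrb1 +3.6 kb in an intron (chr15:74391264-74391887), at ranks 51462, 60899, 50793 and 62899 with BEL. Below the listed length it was also called in untreated corpse cultures 3 and 4, at ranks 83482 and 104253. No receptor site had the opposite pattern, against 0.729% of all. The sequence at the summit is given because this was the only receptor site of its kind, with the SP/KLF letters in capitals.
Adgrb1 +3.6 kb, chr15:74391477-74391577: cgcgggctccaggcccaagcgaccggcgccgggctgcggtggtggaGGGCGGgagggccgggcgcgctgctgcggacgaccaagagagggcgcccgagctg

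Of its 101 bases, 80.2% are G or C, the highest of the sequences shown. The median over 201 bases was 51.7% for the receptor sites and 47.3% for all merged sites.

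By rank, 13 of 46 receptor sites (28.3%) were more significant in every BEL-treated than in any untreated corpse culture, against 17.2% of all sites, and 1 (2.17%) was less significant in every one, against 9.27%. The 13 were 3 sites in the Jmjd6 window, 3 of Stab1, 3 of Adgrb1, 2 of Lrp1 and 2 of Scarb1. The Jmjd6 promoter ranked 1964, 2721, 1821 and 1463 with BEL, against 20276, 13503, 3737 and 10156 without, and its fold enrichment was 11.9 to 13.1 with BEL, against 8.75 to 15.0 without. So the ranks did not overlap while the fold enrichments did. The site over Mfsd11 and Srsf2 in the Jmjd6 window ranked 5516, 8462, 8124 and 9004 with BEL, against 31587, 30490, 20824 and 31002 without. The single site in the other direction was Lrp1 -14.9 kb, at ranks 14651, 15429, 14329 and 13147 with BEL, against 5524, 6477, 4691 and 7535 without.

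This Lrp1 site was therefore more significant with Rxra cKO and less significant with BEL than in the same 4 untreated Rxra WT corpse cultures, which both comparisons share. The peaks per gene did not differ with p under 0.05 for any receptor gene, where 7.21% of 19040 genes did. Adgrb1 had 9, 7, 9 and 9 listed peaks with BEL, against 4, 5, 7 and 7 without (exact permutation p = 0.0857, adjusted p = 0.605). Stored names split both groups into Phago and NonPhago libraries. Among the NonPhago libraries alone, 2 against 2, 8 of 48 testable receptor sites (16.7%) were listed in both BEL-treated and no untreated culture, against 9.62% of all sites. Among the Phago libraries, also 2 against 2, there were 6 of 62 (9.68%), against 6.11%. In the opposite direction there was 1 site in each (background 4.07% for NonPhago and 3.45% for Phago).

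CatVII cells and cultures with corpses differed at receptor sites in both directions, as they did over all sites. This comparison was added after the data had been seen. On lists of 43758 peaks, 6 of 32 testable sites (18.8%) were listed in all 4 CatVII Rxra WT libraries and no Rxra WT culture with corpses, against 13.7% of all 44197 sites. In the opposite direction there were 5 (15.6%), against 21.6%. In the Rxra cKO genotype, on lists of 41317 peaks, 5 of 30 sites (16.7%) were listed in all CatVII and no corpse culture, against 12.5% of all 41479 sites, and 5 in the opposite direction, against 28.1%. By rank the CatVII libraries were ahead at 11 sites (34.4%, background 25.2%) and the cultures at 7 (21.9%, background 30.9%) in Rxra WT. In Rxra cKO these were 10 (33.3%, background 24.1%) and 9 (30.0%, background 37.5%). The sites listed in all CatVII libraries and no corpse culture included sites near the starts of Nt5dc2 and Nisch in both genotypes. In Rxra cKO they also included a site near the starts of Nab2 and Nemp1.

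Scarb1 and Adgrb1 each had an intronic site that was open in CatVII cells and not in cultures with untreated corpses. Scarb1 +56.9 kb (chr5:125360853-125361563), over the start of an annotated transcript without a defined coding sequence, ranked 26302, 11851 and 14232 in CatVII Rxra cKO and 22635, 10417, 5715 and 16801 in CatVII Rxra WT. It was called in none of the 7 cultures with untreated corpses, and in BEL-treated cultures 3 and 4 at ranks 75566 and 92075. It was also present in 2 of 6 CatVII and 1 of 2 AnaVI wild-type libraries. Adgrb1 +22.3 kb (chr15:74409299-74410505) ranked 19813, 43632 and 54338 in CatVII Rxra cKO and 32365, 30549, 13628 and 23185 in CatVII Rxra WT. It was called in no untreated corpse culture, in BEL-treated culture 1 at rank 70247, and in none of the 8 wild-type libraries of CatVII and AnaVI.

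Lrp1 showed the opposite pattern in its introns. The sites at +37.3 kb (chr10:127419525-127419959) and +34.8 kb (chr10:127422103-127422509) were called in all 11 cultures with corpses and in no in vivo library. The first lies at -354 bp from an annotated internal coding start. Lrp1 +37.3 kb ranked 62746, 51929 and 19594 in Rxra cKO and 30132, 26564, 21908 and 11261 in Rxra WT with corpses. It was also called in both Rxra cKO cultures and 1 Rxra WT culture with AA+LPC+RA. Stab1 +28.8 kb was called in the same 11 cultures and in 1 in vivo library, CatVII Rxra WT 2, at rank 90420. Scarb1 -27.3 kb (chr5:125445165-125446006) ranked 68849 and 53235 in CatVII Rxra WT 2 and 4, with no peak in Rxra WT 1 and 3, against 7847, 12305, 15223 and 23107 in Rxra WT with corpses. The summit sequences of these sites are shown for their contrast between skin and culture, with the AP-1 letters TGANTCA in capitals.
Scarb1 +56.9 kb, chr5:125361233-125361333: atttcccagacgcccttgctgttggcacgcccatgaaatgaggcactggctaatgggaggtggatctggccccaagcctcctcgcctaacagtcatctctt
Adgrb1 +22.3 kb, chr15:74410275-74410375: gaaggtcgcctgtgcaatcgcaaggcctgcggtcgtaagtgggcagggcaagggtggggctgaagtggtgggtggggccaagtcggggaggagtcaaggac
Lrp1 +37.3 kb, chr10:127419633-127419733: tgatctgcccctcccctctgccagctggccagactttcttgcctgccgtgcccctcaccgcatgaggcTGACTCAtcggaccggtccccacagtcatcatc
Stab2 +158.3 kb, chr10:86685555-86685655: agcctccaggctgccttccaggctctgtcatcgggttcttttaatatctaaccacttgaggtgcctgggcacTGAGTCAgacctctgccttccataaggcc

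The Lrp1 and Stab2 sites open in culture each hold 1 AP-1 match, and the Scarb1 and Adgrb1 sites open in the skin hold none. Among the receptor sites, AP-1 letters were found within 100 bp of the summit at 4 of 27 sites with peaks only in vivo (14.8%, against 8079 of all 80531 such sites), at 24 of 65 with peaks only in culture (36.9%, against 38.3%) and at 10 of 61 with peaks in both (16.4%, against 26.8%). The receptor sites of culture were thus close to all culture sites in this respect. A nuclear receptor half-site occurred at 38.6% of the receptor sites and 32.4% of all, and a direct repeat of half-sites 1, 2, 4 or 5 bases apart at 1 receptor site, in the Scarb1 window (0.654%, against 0.335% of all).

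Among the receptor genes, the peaks per gene had an unadjusted p under 0.05 between CatVII Rxra WT and Rxra WT with corpses at Adgrb1, which did not pass the correction. It had 5, 6, 7 and 7 listed peaks in CatVII, against 2, 4, 4 and 4 in culture, which is 14.3 ± 2.19 and 8 ± 2.29 per 100000 (SD, n = 4 each). The exact permutation p was 0.0286, the smallest possible, and the adjusted p 0.121, while 23.6% of 18805 genes had p under 0.05. In Rxra cKO, Adgrb1 had 6, 3 and 6 in CatVII, against 3, 3 and 3 in culture (p = 0.4, exact permutation test). With 3 against 3 libraries no p can fall below 0.1 there. Jmjd6 reached this value, with 5 listed peaks in each CatVII library, against 2, 3 and 3 in culture.

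The 30 other genes of scavenger and phosphatidylserine receptor pathways, among them Msr1, Marco, Olr1, Megf10, Cd300a, Lrp2 and Gulp1, gave no gene with an adjusted p under 0.05 in any of the 7 comparisons. Without adjustment, 2 were higher in Rxra cKO and 0 lower than in Rxra WT with corpses, and 0 were higher and 2 lower in CatVII Rxra cKO than in CatVII Rxra WT. With BEL 1 was higher and 1 lower than with untreated corpses (7.21% of all genes). In CatVII Rxra WT 6 were higher and 3 lower than in Rxra WT with corpses (23.6% of all genes). The median difference over the 30 genes was -0.058 per 100000 listed peaks between Rxra cKO and Rxra WT cultures with corpses, and 0 in the other 4 planned comparisons. It was 2 between CatVII Rxra WT and Rxra WT with corpses, and 1.61 between CatVII Rxra cKO and Rxra cKO with corpses.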

How the data were processed

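The authors aligned the reads to mm39 (GRCm39) and called peaks in each library. The submitters' processing notes name BWA 0.7.18, SAMtools 1.17 and MACS3 3.0.0. The deposited peak lists give a fold enrichment (a ratio over background) and the −log10 of the p-value and q-value for each peak. They hold no read counts, so the depth of each library is unknown and no counting interval is given. Only the 19 autosomes and the sex chromosomes were used, with the GENCODE M39 annotation, Python 3.11.15, pandas 2.3.3, NumPy 2.4.6 and matplotlib 3.10.9. In each comparison every library was cut to its most significant peaks by −log10 p, as many as the shortest list held, and peaks overlapping by at least 1 bp were merged. The peaks per gene window were tested with a two-sided exact permutation test over libraries, adjusted by Benjamini-Hochberg over all genes with a listed peak. The procedure was tested on simulated data. The members and lists were chosen with earlier results of these data known, and 2 comparisons and the comparison of ranks were added after the data had been seen, beside 5 planned ones. Sites are named where they cover an annotated start, differ in a planned comparison or are the most shared of a gene. All 9 genes are named, 30 related genes are given as counts, and Rxra is given as the targeted gene. Motif letters were searched on both strands in 201 bases around the median summit.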

Additional observations from a re-analysis of the deposited data

Results flagged for a closer look

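In 29 sets of 1 gene in 1 group, the number of called peaks in the window was examined for a library far from the others, and 4 such libraries were found. Chance alone finds some among so many sets. At Cd36, CatVII wild type replicate 2 had 1 peak, and the other libraries of the group had 0. At Stab2, CatVII Rxra WT replicate 2 had 5 peaks, the most of its group, and BEL-treated corpse culture replicate 2 had 3, the fewest of its group. At Havcr1, Rxra WT replicate 2 with corpses had 1 peak, and the other libraries of the group had 0. The 2 Rxra cKO cultures with AA+LPC+RA, which enter none of the 7 comparisons and were used in 1 alternative, held 5 peaks in the windows of Havcr1 and Timd4 together, against 0 in the medium cultures.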

How the results depend on the processing

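Of 328 alternatives for 32 results, 279 left the result unchanged, 49 moved it and 0 were scored as reversed. Counts of sites for each side of a comparison were separate results, so a switch of sides was not scored as a reversal. With summits within 200 bp the sides did switch for BEL, from 1 BEL-treated and 0 untreated sites to 0 and 1. Unchanged results include settings with 0 testable sites, where the count could only be 0. An example is CatVII against AnaVI wild type with a −log10 q of at least 5. No receptor gene passed the adjusted threshold under any alternative, and with the replicate number as a block none could. Except where a value below shows the cause by its construction, the cause was not tested. With all called peaks, in lists of unequal length, 35 of 72 testable receptor sites were specific to Rxra WT with corpses (48.6%, against 51% of all). There were 0 for medium (against 0.571%) and 0 of 77 for Rxra WT against Rxra cKO with corpses (against 0.365%). CatVII Rxra WT had 3 of 50 (6%, against 7.3%) and its corpse cultures 9 (18%, against 19.9%). CatVII Rxra cKO had 2 of 64 (3.12%, against 4.31%) and its corpse cultures 17 (26.6%, against 33.5%). With lists at 50% of the length, the number was 0 for medium, where 0 sites were testable. With corpses it was 1 of 28 for Rxra cKO (3.57%, against 3.68% of all) and 0 for Rxra WT (against 2.07%). For BEL it was 2 of 26 (7.69%, against 3.14%). It was 2 of 14 for CatVII Rxra WT (14.3%, against 11.7%) and 0 for its cultures (against 21.7%). For CatVII Rxra cKO it was 3 of 17 (17.6%, against 12.7%). With a −log10 q of at least 5 there were 0 for medium, where 0 sites were testable. Rxra WT against Rxra cKO with corpses had 0 of 37 (against 2.1% of all), and BEL had 2 of 37 (5.41%, against 2.36%). Rxra WT cultures against CatVII had 2 of 20 (10%, against 21.6%). With summits within 200 bp, CatVII Rxra cKO had 1 of 36 (2.78%, against 0.742% of all). BEL had 0 of 45 (against 2.05%) and untreated corpses 1 (2.22%, against 1.95%). With 10 kb upstream, Rxra WT against Rxra cKO with corpses had 0 of 33 (against 1.79% of all). CatVII Rxra WT had 3 of 20 (15%, against 13.7%). CatVII Rxra cKO had 2 of 16 (12.5%, against 12.5%) and its cultures 3 (18.8%, against 28.1%). P42 libraries alone (3 against 1) gave 1 of 47 for CatVII Rxra cKO (2.13%, against 2.25% of all).

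The next alternatives were chosen after seeing the data. NonPhago libraries alone (2 against 2) gave 8 of 48 for BEL (16.7%, against 9.62% of all) and 1 for untreated corpses (2.08%, against 4.07%). Phago libraries gave 6 of 62 (9.68%, against 6.11%) and 1 (1.61%, against 3.45%). Adding the AA+LPC+RA cultures gave 0 of 7 for Rxra cKO (against 0.824%) and 0 for Rxra WT (against 0.34%). In lists of equal length the 9 genes had 10 promoter peaks over the CatVII and AnaVI wild-type libraries and 3 over corpse and medium cultures.

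Leaving out 1 library gave 0 to 3 sites for AnaVI. Without AnaVI 1 there were 3 of 12 (25%, against 14.4% of all), and without AnaVI 2 there were 2 of 11 (18.2%, against 18.2%). For CatVII Rxra cKO there were 0 to 1, with 1 of 35 without Rxra cKO 1 (2.86%, against 7.86%). CatVII Rxra WT had 0 to 3, with 3 of 30 without Rxra WT 1 (10%, against 6.94%). It had 1 of 35 without Rxra cKO 1 (2.86%, against 4.66%). Medium had 0 to 1, with 0 of 5 without medium 3 (against 32.9%). Rxra cKO with corpses had 3 to 7, with 7 of 64 without Rxra cKO 2 (10.9%, against 4.94%). Rxra WT with corpses had 1 to 2, with 2 without Rxra cKO 3 (3.28%, against 2.64%) or Rxra WT 1 (3.57%, against 3.25%). BEL had 1 to 3, with 3 without BEL 2 (5.56%, against 2.76%) or untreated 3 (6.12%, against 3.49%). Without BEL 1, 3 or 4 it had 2 (4.08% to 4.26%, against 2.57% to 3.06%). Against CatVII, Rxra WT cultures had 5 to 7, with 7 of 44 without CatVII Rxra WT 1 (15.9%, against 18.9%). Rxra cKO cultures had 5 to 10, with 10 of 39 without Rxra cKO 2 with corpses (25.6%, against 25.7%). The difference per 100000 was -12.2 to -3.01 at Scarb1, 6.23 to 7.4 at Stab2, 2.08 to 2.78 at Timd4, 2.43 to 3.82 at Havcr1 and 5.14 to 6.67 at Adgrb1.

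Deviations of samples with the same replicate number had correlations of -0.0381 to 0.0974 over genes. No correlation of unmatched samples was set beside these, so they do not show whether the numbers pair samples. In the corpse cultures the stored tags Phago and NonPhago follow the replicate numbers. With the replicate number as a block, the differences were -12.2 at Scarb1, 7.4 at Stab2, 2.31 at Timd4 and 3.24 at Havcr1. No gene passed the adjusted threshold, and the count was 0 in each planned comparison. The smallest p possible with these blocks was 0.125 to 0.5 (exact test flipping the sign of paired differences). No gene could therefore pass, and the count of 0 was fixed by the design. Peak lists hold no read counts, so a site under the calling threshold cannot be told from one that is closed.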
